A study of Mus musculus with 48 samples.

Results

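The 9 genes studied here mark the resident Kupffer cell, the macrophage that lives in the liver sinusoid, and were followed in bulk liver RNA from mice with damaged LXRα. They were chosen by name as resident Kupffer cell markers known to depend on LXRα, with no threshold on measured values. They are 9 of the 55416 genes with counts: Clec4f, Timd4, Marco, Vsig4, Cd5l, Cd163, Folr2, Id3 and Spic. All 9 passed the filter on low counts. The livers came from 6 groups of 8 C57Bl/6J mice. DN:WT, DN:HET and DN:HOM livers carried 0, 1 or 2 copies of a dominant-negative LXRα allele (p.W441R, a knock-in), and the KO:WT, KO:HET and KO:HOM livers carried 0, 1 or 2 copies of a LXRα knockout allele. Every mouse ate a western diet with 0.2% cholesterol for 8 weeks, from 8 to 16 weeks of age. The knock-in mice were male offspring of heterozygous crosses, made by genome editing of C57BL/6J embryos. The sex of the knockout mice is not named outright in the sources used here. The paper says that the experiment on male knock-in mice was repeated with the knockout line. The knockout line began on a mixed Sv129 and C57Bl/6 background before it was backcrossed. Both alleles are carried by every cell of the mouse, hepatocytes and macrophages alike. The studies were run at different sites, so model and site cannot be told apart, and each homozygous or heterozygous group was compared with the wild-type mice of its own study.

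Kupffer cells settle in the liver before birth, hold their place beside hepatocytes, stellate cells and endothelium, and clear bacteria, dying cells and modified lipoproteins from portal blood. LXRα, the oxysterol receptor encoded by Nr1h3, is one of the factors that set their identity, acting with Notch, BMP and TGF-β signals from neighbouring cells. When resident cells are lost, monocytes from the blood enter the liver, and over time they can take on much of the resident programme. Clec4f, Timd4 and Vsig4 are among the genes by which resident cells are told from such recruits. In bulk RNA, fewer Kupffer cells and less RNA per cell cannot be told apart.

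The livers held between 5332897 and 16961379 reads on genes (median 15879972), with KO:HET animal 3 and KO:HOM animal 17 under 10000000. Nr1h3 checked the labels of the knockout study, with 93.6 ± 8.82 CPM (SD, n = 8) in KO:WT, 59.2 ± 5.63 CPM (SD, n = 8) in KO:HET and 27.002 ± 1.99 CPM (SD, n = 8) in KO:HOM livers, where CPM are read counts relative to the size and composition of the library. The knock-in changes 1 amino acid and leaves the gene expressed, at 82.1 to 96.9 CPM in DN:WT and 68.5 to 77.4 in DN:HOM livers once the next 2 libraries are set aside. The library labelled DN:WT animal 10 and the library labelled DN:HOM animal 12 stood apart from their groups. Clec4f was at 0.202 CPM in the former, against 60.3 to 108 in the other DN:WT livers, and at 62.1 CPM in the latter, against 0.192 to 0.632 in the other DN:HOM livers. Of the 7 surface and secreted members, DN:WT animal 10 lay within the range of the other DN:HOM livers for 6, the exception being Cd5l, and DN:HOM animal 12 within the range of the other DN:WT livers for 7. Nr1h3 was at 71.3 CPM in animal 10, in the DN:HOM range, and at 86.9 in animal 12, in the DN:WT range, while Id3 lay in the DN:HOM range in both. Whether the labels of these libraries were exchanged was not tested, and every value over all 48 livers carries that doubt. The study's own source data for an extended data figure were searched for values of the other 46 livers. For the 7 genes whose values matched, the 154 values fitted 22 livers of the knock-in study. Both libraries are therefore taken to be left out there, with no reason given. They were not themselves in the search. The legend of the paper's expression heatmap gives n = 8. The values below are from the other 46 livers, 7 in DN:WT and DN:HOM and 8 in each other group. The main results over all 48 livers are given as well. Neither library was moved to another group.

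The promoters of Clec4f, Timd4 and Cd5l are shown because the first pair lost more in the knock-in than in the knockout and Cd5l lost nearly all in both. Each is the 250 bases before the annotated start of the main transcript in GRCm39, read 5′ to 3′ on the strand of the gene. Capitals mark AGGTCA, a half-site of the kind nuclear receptors bind, and GAGGAA, the core of the box bound by PU.1 and Spi-C, each on either strand. The window of Clec4f holds neither.
Clec4f, chr6:83633170-83633419, minus strand: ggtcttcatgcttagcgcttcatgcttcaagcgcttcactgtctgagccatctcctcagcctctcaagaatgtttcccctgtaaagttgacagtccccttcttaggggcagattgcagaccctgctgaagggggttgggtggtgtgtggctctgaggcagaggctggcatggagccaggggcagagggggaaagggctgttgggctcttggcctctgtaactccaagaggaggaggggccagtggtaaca
Timd4, chr11:46701370-46701619, plus strand: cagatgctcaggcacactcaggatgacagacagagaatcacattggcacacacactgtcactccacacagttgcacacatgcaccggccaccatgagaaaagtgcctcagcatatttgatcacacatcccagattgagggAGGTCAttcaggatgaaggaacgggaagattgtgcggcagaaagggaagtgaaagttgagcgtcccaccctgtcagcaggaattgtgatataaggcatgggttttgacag
Cd5l, chr3:87264932-87265181, plus strand: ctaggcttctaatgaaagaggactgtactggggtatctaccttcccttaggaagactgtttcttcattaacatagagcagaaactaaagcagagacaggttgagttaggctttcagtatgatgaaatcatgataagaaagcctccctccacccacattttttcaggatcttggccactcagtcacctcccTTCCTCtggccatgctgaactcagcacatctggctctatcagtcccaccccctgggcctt
AGGTCA lay in the windows of Timd4 and Id3, 2 of the 9 members, and in 13.1% of 21770 protein-coding promoters. GAGGAA lay in those of Marco, Vsig4 and Cd5l, 3 of the 9, and in 22.9% of all promoters. A direct repeat of GGTCA with 5 open bases between, which takes in the element that LXR and RXR bind together, was in no member window and in 0.0413% of promoters. TGGGAA, the core that RBPJ binds in Notch signalling, lay in the window of Marco and in 22.7% of promoters, and CACGTG, the E-box, lay in no member window and in 6.26% of them. These matches describe letters near the start site and are no evidence of binding.

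The first question was how much of the Kupffer cell programme was lost when both LXRα alleles were damaged. In DN:HOM livers 7 of the 9 members fell against DN:WT, all of them surface or secreted proteins, 1 rose (Id3) and 1 did not pass the test (Spic). Of all 15711 genes tested, 29.9% fell and 29.1% rose in this comparison (edgeR quasi-likelihood test, Benjamini-Hochberg adjusted p under 0.05). The median log2 difference was -4.65 over the members and -0.01 over all genes tested. For each of the 7, every DN:HOM liver was below every DN:WT liver, which held for 15.8% of genes. In KO:HOM livers 5 of the 9 members fell against KO:WT (Cd5l, Timd4, Cd163, Folr2 and Clec4f), 1 rose (Spic), and Marco, Vsig4 and Id3 did not pass the test. Of all genes, 7.82% fell and 11.5% rose. The members were chosen as genes known to depend on LXRα, and with earlier results of these data known. Their counts beside the shares of all genes are therefore a description. The median log2 difference was -1.18 over the members and -0.02 over all genes. Cd5l, Timd4 and Cd163 had every KO:HOM liver below every KO:WT liver, which held for 0.369% of genes.

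**Figure D1:**
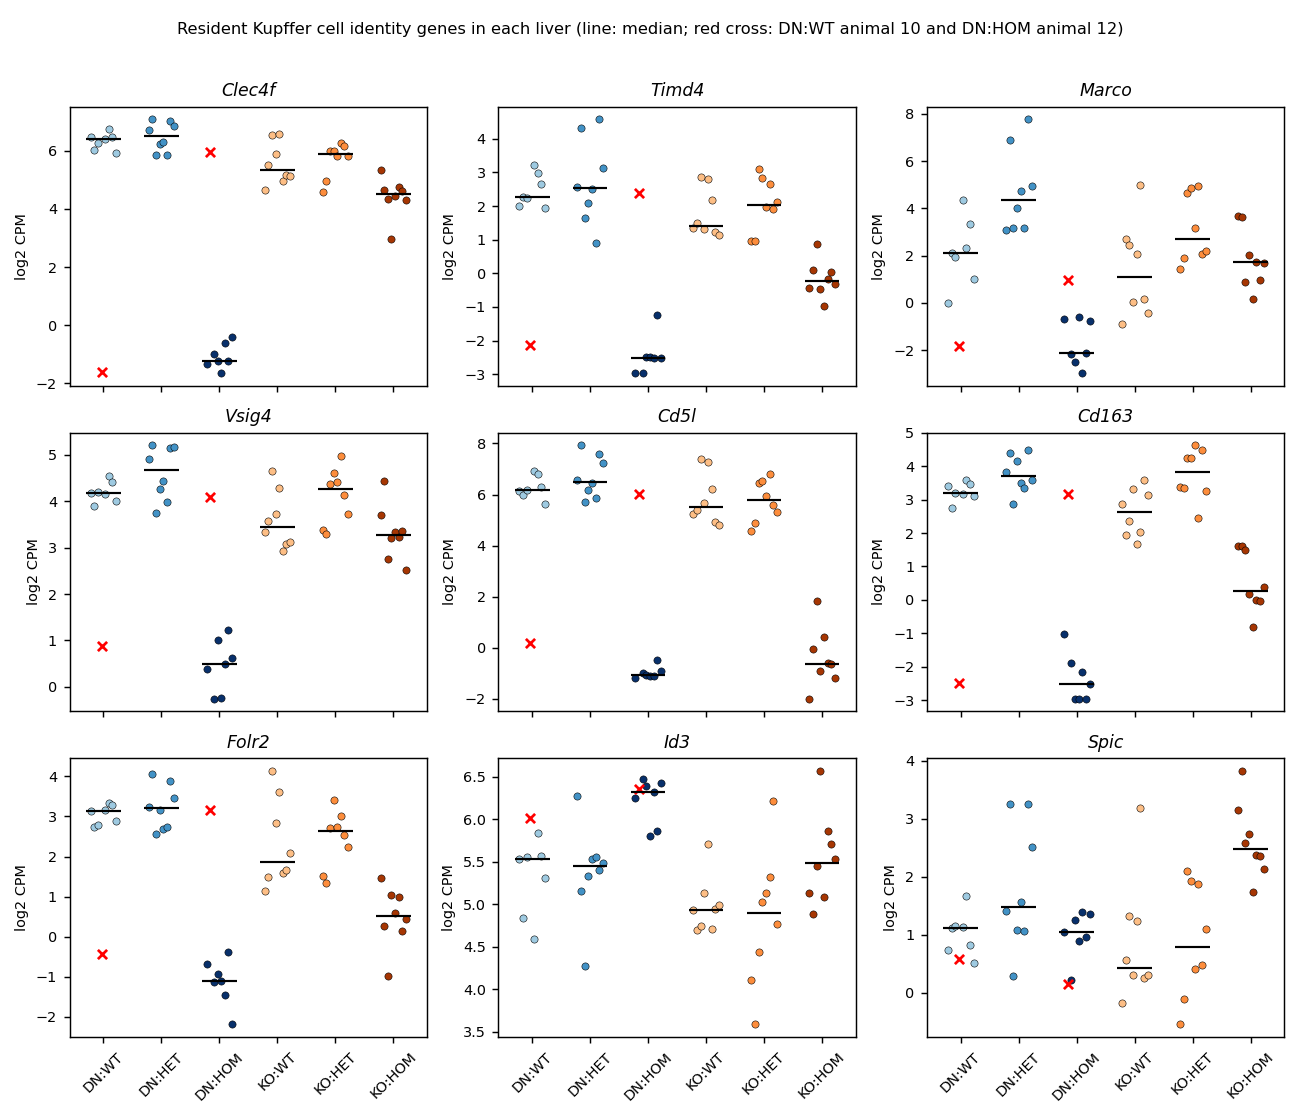
Level of the 9 genes in each of 48 livers as log2 CPM, 1 panel a gene and 1 point a liver, with the 6 genotype groups on the horizontal axis, the median of the livers used as a line, and the libraries labelled DN:WT animal 10 and DN:HOM animal 12 as red crosses. The 7 surface and secreted genes lie far below wild-type in DN:HOM, Cd5l alone lies as far down in KO:HOM, and Id3 and Spic show neither fall.

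Clec4f (ENSMUSG00000014542, chr6:83621524-83633169, minus strand), a C-type lectin that binds galactose-bearing ligands and is found in mouse liver almost solely on Kupffer cells, had the deepest loss in the knock-in. It lay between 60.3 and 108 CPM with a median of 84.97 in DN:WT livers, between 57.5 and 135 CPM with a median of 91.2 in DN:HET livers, and between 0.192 and 0.632 CPM with a median of 0.296 in DN:HOM livers. The DN:HOM range rests on 55 reads in 7 livers and does not meet the others. The log2 difference between DN:HOM and DN:WT was -7.74 ± 0.42 (standard error, adjusted p = 2.75e-18), rank 4 from the lowest of 15711 genes tested. In the knockout study it lay between 24.7 and 96.1 CPM with a median of 40.8 in KO:WT livers, between 23.97 and 77.7 CPM with a median of 59.5 in KO:HET livers and between 7.68 and 39.98 CPM with a median of 22.995 in KO:HOM livers. The KO:HOM and KO:WT ranges overlapped, with 5 of 8 KO:HOM livers below the lowest KO:WT liver. The KO:HOM difference was -1.18 ± 0.26 (standard error, adjusted p = 0.00115), and with all 48 livers in the fit, which share 1 estimate of the spread, the same difference of -1.18 had an adjusted p of 0.295.

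Timd4 (ENSMUSG00000055546, chr11:46701620-46735177, plus strand), the phosphatidylserine receptor TIM-4 that tethers dying cells and marks Kupffer cells of embryonic origin, lay between 3.68 and 9.10 CPM with a median of 4.67 in DN:WT and between 0 and 0.296 CPM with a median of 0.0471 in DN:HOM livers. The 7 DN:HOM livers held 10 reads of it in all, and 2 of them held none. The difference was -6.22 ± 0.64 (standard error, adjusted p = 4.63e-11). It lay between 2.08 and 7.11 CPM with a median of 2.55 in KO:WT and between 0.378 and 1.71 CPM with a median of 0.720 in KO:HOM livers, a difference of -2.29 ± 0.46 (standard error, adjusted p = 3.34e-04). The KO:HOM median was 28.2% of wild-type, so the gene was low in the knockout but read in every liver, where the DN:HOM median was 1.01%.

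Cd163 (ENSMUSG00000008845, chr6:124281606-124307560, plus strand), the scavenger receptor for haptoglobin-haemoglobin complexes, lay between 6.65 and 12.01 CPM with a median of 8.98 in DN:WT and between 0 and 0.361 CPM with a median of 0.0452 in DN:HOM livers, where 3 of 7 livers held no read. The difference was -6.52 ± 0.53 (standard error, adjusted p = 1.20e-13). It lay between 3.07 and 12.01 CPM with a median of 6.12 in KO:WT, between 5.39 and 24.6 CPM with a median of 14.5 in KO:HET and between 0.441 and 2.94 CPM with a median of 1.08 in KO:HOM livers, a homozygous difference of -2.12 ± 0.36 (standard error, adjusted p = 5.56e-05). No KO:HOM liver reached the lowest KO:WT liver, and the KO:HET livers held the highest values of that study.

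Folr2 (ENSMUSG00000032725, chr7:101489195-101506401, minus strand), folate receptor β of tissue-resident macrophages, lay between 6.58 and 9.94 CPM with a median of 8.63 in DN:WT and between 0.0903 and 0.641 CPM with a median of 0.336 in DN:HOM livers, a difference of -4.48 ± 0.45 (standard error, adjusted p = 1.99e-11). In the knockout study it lay between 2.06 and 17.4 CPM with a median of 3.58 in KO:WT and between 0.380 and 2.63 CPM with a median of 1.31 in KO:HOM livers, a difference of -2.09 ± 0.37 (standard error, adjusted p = 6.59e-05), with 7 of 8 KO:HOM livers below the lowest KO:WT liver. Exons of Folr2 overlap those of Gm10602 on the other strand. Counts that ignore strand took the knockout difference to -1.37 (adjusted p = 0.0912).

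Vsig4 (ENSMUSG00000044206, chrX:95290807-95337044, minus strand), the complement receptor CRIg that captures bacteria coated with C3 fragments, and Marco (ENSMUSG00000026390, chr1:120402267-120432753, minus strand), a class A scavenger receptor, parted the models. Vsig4 lay between 14.7 and 23.2 CPM with a median of 17.8 in DN:WT and between 0.711 and 2.22 CPM with a median of 1.27 in DN:HOM livers, a difference of -3.76 ± 0.33 (standard error, adjusted p = 1.01e-12). It lay between 7.47 and 25.03 CPM with a median of 10.8 in KO:WT and between 5.62 and 21.4 CPM with a median of 9.59 in KO:HOM livers, which overlapped, and the difference of -0.27 (95% confidence interval -0.81 to 0.27, adjusted p = 0.527) did not pass the test. Among the 7 that fell in the knock-in, Vsig4 had the smallest difference, with a DN:HOM median still 7.15% of wild-type.

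Of the members, Marco varied most relative to its mean among the wild-type and among the heterozygous livers of each study. It lay between 0.876 and 20.3 CPM with a median of 4.17 in DN:WT and between 0 and 0.528 CPM with a median of 0.0986 in DN:HOM livers, a difference of -4.65 ± 1.18 (standard error, adjusted p = 8.32e-04). It lay between 0.413 and 31.97 CPM with a median of 2.53 in KO:WT and between 1.01 and 12.6 CPM with a median of 3.15 in KO:HOM livers, and the difference of -0.31 (95% confidence interval -1.90 to 1.29, adjusted p = 0.831) did not pass the test. KO:WT animal 32 alone held 31.97 CPM, and without it the difference was 0.94 with an adjusted p of 0.468, so its direction in the knockout rested on that liver.

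Cd5l (ENSMUSG00000015854, chr3:87265182-87278380, plus strand), which encodes AIM, a secreted protein that protects macrophages from death and circulates with IgM, and which is a known LXR target in macrophages, was lost in both models. It lay between 49.5 and 120.4 CPM with a median of 72.1 in DN:WT, between 51.6 and 244 CPM with a median of 90.8 in DN:HET and between 0.316 and 0.592 CPM with a median of 0.344 in DN:HOM livers. It lay between 27.6 and 169.6 CPM with a median of 46.2 in KO:WT, between 23.8 and 110.5 CPM with a median of 54.8 in KO:HET and between 0.122 and 3.42 CPM with a median of 0.522 in KO:HOM livers. Neither homozygous range met the wild-type or heterozygous range of its study. The differences were -7.67 ± 0.58 (standard error, adjusted p = 3.01e-14) in the knock-in and -6.69 ± 0.53 (standard error, adjusted p = 7.37e-12) in the knockout, where it ranked 1 from the lowest of 15711 genes. The highest KO:HOM value came from animal 17, a liver of low depth, and without the 2 livers of low depth the knockout difference was -7.03.

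In level against wild-type, the members that act in the nucleus did not follow. Id3 (ENSMUSG00000007872, chr4:135870808-135873066, plus strand), an inhibitor of E-box binding factors that Kupffer cells need and that stellate, endothelial and other liver cells also make, lay between 23.98 and 57.1 CPM with a median of 46.05 in DN:WT and between 55.8 and 88.7 CPM with a median of 79.5 in DN:HOM livers. Its log2 rise was 0.88 ± 0.27 (standard error, adjusted p = 0.00534), and 6 of 7 DN:HOM livers were above the highest DN:WT liver. It lay between 25.8 and 51.98 CPM with a median of 30.5 in KO:WT and between 29.3 and 94.5 CPM with a median of 44.8 in KO:HOM livers, a difference of 0.60 (95% confidence interval 0.08 to 1.12, adjusted p = 0.0968) that did not pass the test. Its relative Id1, a BMP target, rose by 1.40 in DN:HOM (adjusted p = 1.04e-05) and had a difference of -0.03 in KO:HOM (adjusted p = 0.948).

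Spic (ENSMUSG00000004359, chr10:88510629-88520960, minus strand), an Ets factor of the macrophages that recycle iron from red cells, lay between 1.29 and 3.07 CPM with a median of 2.05 in DN:WT and between 1.04 and 2.498 CPM with a median of 1.94 in DN:HOM livers, and its difference of 0.01 (95% confidence interval -0.95 to 0.97, adjusted p = 0.986) did not pass the test. It lay between 0.757 and 8.98 CPM with a median of 1.23 in KO:WT and between 3.21 and 14.04 CPM with a median of 5.49 in KO:HOM livers. The log2 rise in KO:HOM was 1.48 ± 0.43 (standard error, adjusted p = 0.0120), though 1 KO:WT liver, animal 32, reached into their range at 8.98 CPM. Without that liver the rise was 2.21 (adjusted p = 1.66e-04). Hmox1, the haem oxygenase of the same iron-recycling cells, rose by 1.21 in DN:HOM (adjusted p = 4.16e-04) and 0.78 in KO:HOM (adjusted p = 0.0368, and 0.0793 over all 48 livers).

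Compared per kilobase of exon, which allows genes to be ranked, DN:WT levels ran from 39.6 CPM per kilobase for Cd5l through 23.1 for Id3, 22.1 for Clec4f and 12.3 for Vsig4 down to 0.476 for Spic. In DN:HOM livers Id3, at 42.01 CPM per kilobase, stood above every other member, the next being Vsig4 at 0.901. In KO:HOM livers Id3 (27.4) was followed by Vsig4 (7.15) and Clec4f (6.27).

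The wild-type livers of the studies were also compared. Between DN:WT and KO:WT, 0 of 9 members passed the edgeR test, against 11.9% of all genes, 1 (Clec4f) had an unadjusted p under 0.05, and DESeq2 called 0. The log2 differences ran from -0.27 for Spic to 0.63 for Clec4f (95% confidence interval 0.10 to 1.17). The interval was widest for Marco, -1.59 to 1.66, so the starting levels of the studies need not have been alike.

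The second question was whether the dominant-negative allele cost more of the programme than the absence of the receptor. The test was the difference between the homozygous effects, each taken against its own wild-type livers. The knock-in effect was lower for 6 of 9 members, where 18.2% of all genes were lower. The gap in log2 was -6.56 ± 0.50 (standard error, adjusted p = 6.59e-13) for Clec4f. It was -4.41 for Cd163 (adjusted p = 3.09e-06), -4.34 for Marco (adjusted p = 0.0181) and -3.94 for Timd4 (adjusted p = 3.00e-04). For Vsig4 it was -3.49 (adjusted p = 1.84e-08) and for Folr2 -2.39 (adjusted p = 0.00110), and with counts that ignore strand the Folr2 gap was -2.001 (adjusted p = 0.0730). Cd5l, lost in both, had a gap of -0.98 (95% confidence interval -2.82 to 0.85, adjusted p = 0.430) that did not pass the test. Spic (-1.47, adjusted p = 0.0719) and Id3 (0.28, adjusted p = 0.605) did not pass the test.

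These gaps depended on the 2 libraries that stood apart. Over all 48 livers the 7 members that fell in DN:HOM still fell, with log2 differences of -3.80 to -2.38 and adjusted p between 1.46e-04 and 0.00287, and the groups then overlapped. The gap between the models then passed the test for 1 of 9 members, Vsig4, at -2.11 (adjusted p = 0.0297), where 1626 of 15621 genes were called in either direction, against 5427 of 15711 without the 2 libraries. The share of members called is then near that of all genes. It was -2.06 for Clec4f (adjusted p = 0.177), -3.48 for Marco (0.0773), -0.75 for Timd4 (0.671), -0.87 for Cd163 (0.593) and -0.36 for Folr2 (0.818). For Cd5l it changed sign, to 3.52 (adjusted p = 0.0690). In the knockout comparison over all 48 livers, 4 of 9 members fell and Spic rose, where 2005 of 15621 genes were called in either direction, against 3037 of 15711.

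**Figure D2:**
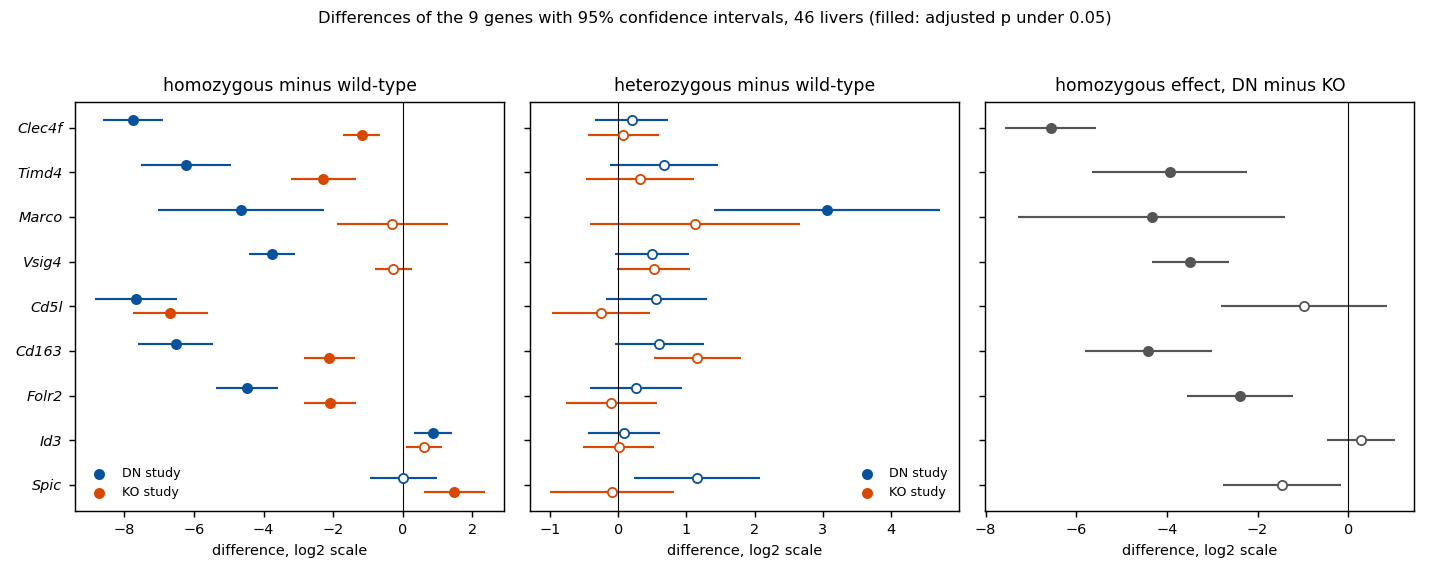
Log2 differences of the 9 genes (points) with 95% confidence intervals (lines) over 46 livers, for homozygous minus wild-type, heterozygous minus wild-type, and the knock-in homozygous effect minus the knockout effect, filled where the adjusted p was under 0.05. In the left panel the studies part for every surface gene and nearly meet for Cd5l, and in the middle panel Marco of the knock-in study is the sole filled point.

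The third question was allele dose. In DN:HET livers 1 of 9 members, Marco, rose against DN:WT, where 1.99% of all genes rose, and 0 of 9 fell by edgeR or DESeq2, with none lower at an unadjusted p under 0.05. Marco lay between 8.26 and 217 CPM with a median of 21.1 in DN:HET livers, a difference of 3.06 ± 0.82 (standard error, adjusted p = 0.0370). Animals 4 and 22 held 118 and 217 CPM, the next liver 30.6. The same livers had the highest 2 values of Timd4, at 19.8 and 23.7 CPM, and of Spic, at 9.39 and 9.49 CPM. They also had the highest mean log2 CPM of 13 pan-macrophage genes, 6.32 and 6.47, against at most 5.43 in the other DN:HET livers. Without them the Marco difference was 1.34 (adjusted p = 1), and 1 gene of all those tested was called in place of 322. The call was also lost over all 48 livers (adjusted p = 0.0656).

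The other members overlapped their DN:WT ranges in DN:HET livers. Timd4 lay between 1.74 and 23.7 CPM with a median of 5.69, Cd163 between 7.21 and 22.5 CPM with a median of 12.9 and Folr2 between 5.73 and 16.6 CPM with a median of 9.06. Vsig4 lay between 13.3 and 36.7 CPM with a median of 25.6, Id3 between 19.2 and 76.8 CPM with a median of 43.5 and Spic between 1.10 and 9.49 CPM with a median of 2.67. No DN:HET liver came within the DN:HOM range of any of the 7 surface and secreted genes.

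In KO:HET livers 0 of 9 members passed the edgeR test against KO:WT, where 0.0191% of all genes did. DESeq2 also called 0, and 1 member, Cd163, had an unadjusted p under 0.05, with a difference of 1.16 (95% confidence interval 0.52 to 1.80, adjusted p = 0.399). In these livers Timd4 lay between 1.81 and 8.50 CPM with a median of 3.97, Folr2 between 2.42 and 10.6 CPM with a median of 6.07 and Vsig4 between 9.67 and 31.3 CPM with a median of 19.01. Marco lay between 2.58 and 30.6 CPM with a median of 6.71, Id3 between 11.9 and 73.9 CPM with a median of 29.8 and Spic between 0.557 and 4.18 CPM with a median of 1.64. All of these overlapped the KO:WT range. Nr1h3 itself fell by 0.67 on the log2 scale in KO:HET (adjusted p = 4.82e-11). The knock-in and knockout heterozygous effects differed for 0 of 9 members by edgeR, by DESeq2 and at an unadjusted p under 0.05, with 0.00636% of all genes called, and the intervals were wide, for Marco -0.25 to 4.13 and for Clec4f -0.62 to 0.86.

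Homozygous livers were then set against heterozygous livers of the same study. Against DN:HET, 8 of 9 members fell in DN:HOM, where 27.8% of all genes fell. These were the 7 surface and secreted genes and Spic (-1.14, adjusted p = 0.0293), and Spic was lost without animals 4 and 22, with library size alone and with no low-count filter. Id3 rose (0.79, adjusted p = 0.00958). Against KO:HET, 6 of 9 fell in KO:HOM, where 3.31% of all genes fell. They were Cd5l, Cd163, Timd4, Folr2, Clec4f and, near the threshold, Vsig4 (-0.79, adjusted p = 0.0469), while Spic rose (1.57, adjusted p = 0.0157). The KO:HOM fall of Cd163 was -3.27 against KO:HET and -2.12 against KO:WT. DN:HET levels lay above the midpoint of DN:WT and DN:HOM, taken on the log2 scale, for 8 of 9 members, where 13.1% of all genes did, Id3 being the exception. For a gene nearly lost in DN:HOM this midpoint lies far below the mean of both levels, so a level in proportion to the number of normal alleles would also lie above it, and the depth of the homozygous loss largely sets this count. For Clec4f the excess was 4.07 (adjusted p = 3.75e-14). KO:HET levels lay above their midpoint for Cd5l (3.09, adjusted p = 1.23e-06) and Cd163 (2.22, adjusted p = 2.74e-06), where 0.0446% of all genes did. Over all 48 livers neither passed that test. The same limit of the midpoint applies to Cd5l, whose KO:HOM median was 1.13% of wild-type, and less to Cd163 at 17.7%.

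The fall of the identity genes went with a rise of genes that all macrophages share. Of 13 pan-macrophage genes, 12 rose in DN:HOM, where 29.1% of all genes rose, and 12 in KO:HOM, where 11.5% did, with median log2 differences of 1.57 and 1.64. Over all 48 livers 10 and 11 rose, the calls lost being those of Adgre1 and Mpeg1 in DN:HOM and of Mertk in KO:HOM. Csf1r, the receptor on which macrophages depend for survival, rose by 1.01 (adjusted p = 0.00556) and 1.64 (adjusted p = 1.28e-04). Cd68, a lysosomal glycoprotein, rose by 2.48 (1.56 over all 48 livers) and 1.89, and C1qa, a complement subunit made by macrophages, by 1.80 and 1.64. Adgre1, which encodes F4/80, rose by 1.03 in DN:HOM (adjusted p = 0.0142, and 0.0797 over all 48 livers) and differed by 0.87 in KO:HOM (adjusted p = 0.0723). None of the 13 passed the test of a difference between the models, where 18.2% of all genes were lower in the knock-in and 16.4% higher. Lyz2 came nearest (1.72, adjusted p = 0.0620, and -0.46 over all 48 livers).

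Genes of recruited monocytes and of lipid-associated macrophages rose as well. Of 8 monocyte genes, 7 were tested, and 5 rose in DN:HOM and 6 in KO:HOM, against the same 29.1% and 11.5% of all genes, among them Ccr2, the receptor by which monocytes leave the marrow, by 3.03 and 2.10, and Itgax, which encodes CD11c, by 4.65 and 3.29. Over all 48 livers the DN:HOM rises were 1.80 for Ccr2 and 2.35 for Itgax, both under the KO:HOM values. The summed level of the list was 8.79 to 25.2 CPM in DN:WT and 97.9 to 125 in DN:HOM livers. It was 9.01 to 22.1 in KO:WT and 28.2 to 101 in KO:HOM livers, with no overlap in either study. Of 7 lipid-associated genes, 7 rose in DN:HOM and 4 in KO:HOM (all genes, 29.1% and 11.5%), the latter count falling to 1 over all 48 livers. The effect was higher in the knock-in for all 7 by the test of the difference, where 16.4% of all genes were higher, and for 1 of 7, Cd9, over all 48 livers (1.77, adjusted p = 0.0300). For Trem2, a lipid-sensing receptor, the gap was 3.21 (adjusted p = 5.87e-04) and 0.64 over all 48 livers (adjusted p = 0.724). For Gpnmb, a lysosomal glycoprotein of foam cells, it was 3.67 (adjusted p = 0.00810) and turned to -1.50 over all 48 livers (adjusted p = 0.509). The part of these cells in the fall of the identity genes was not tested.

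**Figure D3:**
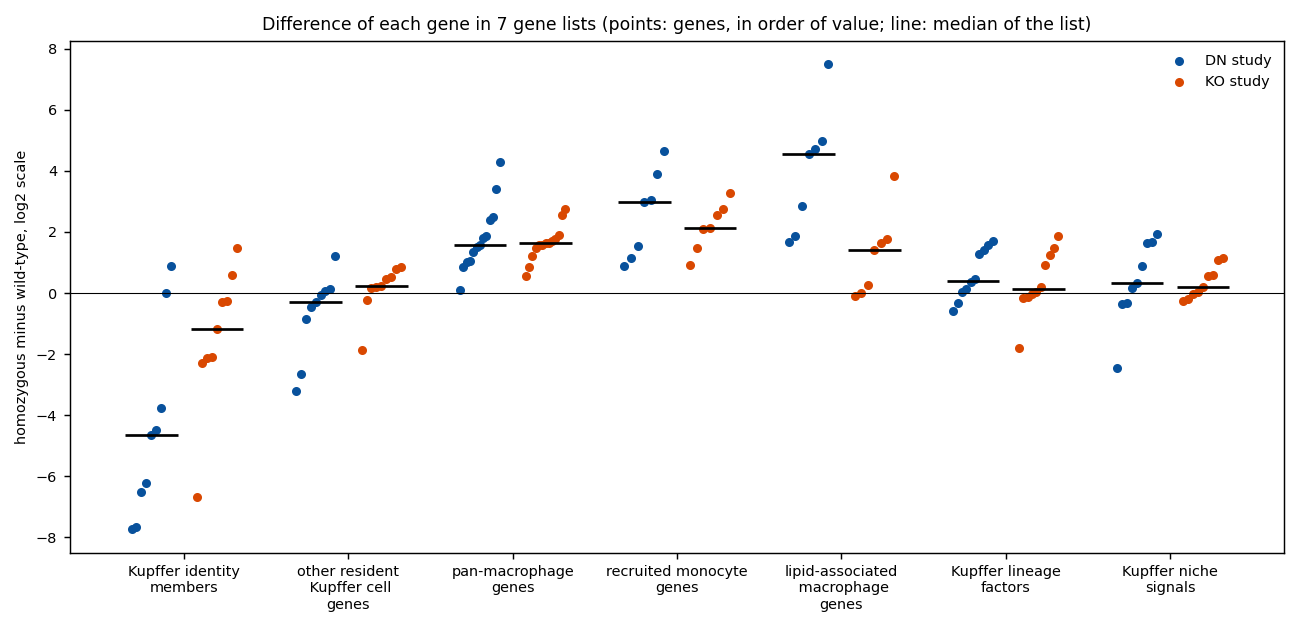
Log2 difference between homozygous and wild-type livers for each tested gene of 7 lists (points) in the knock-in and knockout studies, with the median of each list as a line. The 9 identity genes have medians of -4.65 and -1.18, while the pan-macrophage, monocyte and lipid-associated lists have medians above 1 in both studies.

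Other genes of the resident Kupffer cell, a list also chosen with earlier results known, did not fall as a body. Of 10 such genes, 9 were tested, and 3 fell and 1 rose in DN:HOM, where 29.9% of all genes fell and 29.1% rose, while 1 fell and 2 rose in KO:HOM (all genes, 7.82% and 11.5%), with no KO:HOM rise called over all 48 livers. Fcna, a ficolin of the lectin pathway, lay between 20.3 and 36.2 CPM with a median of 29.5 in DN:WT, between 2.27 and 4.09 CPM with a median of 3.11 in DN:HOM, between 12.8 and 31.5 CPM with a median of 18.7 in KO:WT and between 16.1 and 31.1 CPM with a median of 23.1 in KO:HOM livers. It fell in the knock-in (-3.20, adjusted p = 5.07e-18), not past the test in the knockout (0.17, adjusted p = 0.499), and the models differed by -3.37 (adjusted p = 8.73e-14). Ccl24, an eosinophil chemokine, fell in both, by 2.65 and 1.87 on the log2 scale. Clec1b, the podoplanin receptor CLEC-2, fell by 0.85 in the knock-in (adjusted p = 0.00920). Slc40a1, the iron exporter ferroportin, and C6, a terminal complement component that hepatocytes also make, did not pass the test in either study.

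Of 10 Kupffer lineage factors, 5 rose and 2 fell in DN:HOM, and 4 rose and 1 fell in KO:HOM. Of all genes 29.1% rose and 29.9% fell in DN:HOM, and 11.5% rose and 7.82% fell in KO:HOM. The rises of Rbpj in DN:HOM and of Tfec in KO:HOM were lost over all 48 livers. Spi1 (PU.1) rose by 1.71 and 1.48 and Irf8 by 1.56 and 1.87, factors that all macrophages use. Rxra, the partner with which LXRα binds DNA, fell by 0.59 in DN:HOM (adjusted p = 3.01e-06). Nr1h3 fell by 0.32 in DN:HOM and 1.80 in KO:HOM, the former a small difference that turned to 0.11 when counts were scaled by library size alone.

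Of 9 signals that other liver cells send to Kupffer cells, 4 rose and 2 fell in DN:HOM and 3 rose in KO:HOM, where 29.1% of all genes rose and 29.9% fell in DN:HOM and 11.5% rose in KO:HOM. The fall of Bmp2, a BMP of endothelial cells, was lost over all 48 livers (adjusted p = 0.115). Bmp10, a stellate cell ligand of the ALK1 receptor, lay between 2.37 and 3.80 CPM with a median of 2.93 in DN:WT and between 0.181 and 0.903 CPM with a median of 0.543 in DN:HOM livers, a fall of 2.46 on the log2 scale (adjusted p = 2.12e-11). In KO:HOM its difference was 0.05 (adjusted p = 0.906), and the models differed by -2.50 (adjusted p = 4.76e-08). The growth factors that sustain macrophages did not fall, with Csf1 at 1.64 and 1.14 (adjusted p = 6.66e-08 and 1.57e-04), and Il34 at 1.93 in DN:HOM (adjusted p = 3.27e-07). The Notch ligand Dll4 had differences of -0.31 (adjusted p = 0.205) and -0.18 (adjusted p = 0.578). Of 6 genes that LXR controls in macrophages, 4 fell and 2 rose in DN:HOM and 1 fell and 2 rose in KO:HOM (all genes, 7.82% and 11.5%). The DN:HOM fall of Apoe, an apolipoprotein made by macrophages and hepatocytes, was lost over all 48 livers (adjusted p = 0.0551). Pltp, the phospholipid transfer protein, fell in both by 1.87 and 1.90, and Abcg1, a sterol exporter, rose by 1.74 and 1.37. Hepatocytes also make most of these.

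Markers of other cells are given beside the 29.9% of all genes that fell and 29.1% that rose in DN:HOM, and the 7.82% and 11.5% in KO:HOM. With lists this short and shares this large, the DN:HOM counts are a description. Of 6 hepatocyte markers, 4 fell and 1 rose in DN:HOM and 4 fell in KO:HOM, with summed levels of 61372 to 80024 CPM in DN:WT and 40462 to 48900 in DN:HOM livers. Of 6 endothelial markers, 4 fell and 1 rose in DN:HOM and 1 rose in KO:HOM. Of 5 stellate cell markers, 4 rose in each, of 5 T cell markers 3 and 5 rose, of 3 neutrophil markers tested 3 and 1, and of 4 dendritic cell markers 2 and 3. Of 4 B cell markers 1 fell in DN:HOM. Over all 48 livers the counts dropped to 1 for hepatocyte and 2 for stellate cell markers in KO:HOM, to 1 for T cell markers in DN:HOM, and to 0 for neutrophil markers in KO:HOM and for the B cell fall and the endothelial rise in DN:HOM. Stellate cell markers in DN:HOM dropped to 3 and dendritic cell markers in KO:HOM to 2. Their part in the levels of the identity genes was not tested.

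Set against the macrophage genes of the same liver, the mean of the 7 surface and secreted members stood apart in homozygous livers. The mean log2 CPM of the 7 surface and secreted members lay at 3.50 to 4.48 in DN:WT, 3.65 to 5.78 in DN:HET and -1.48 to -1.03 in DN:HOM livers. It lay at 2.53 to 4.34 in KO:WT, 2.83 to 4.64 in KO:HET and 1.02 to 2.09 in KO:HOM livers. In DN:HOM livers the members with fewest reads lay near the floor set by the prior count of 2. Timd4 rested there on 10 reads, Cd163 on 14 and Marco on 37. That floor limits how low the DN:HOM means and ratios can lie. The mean of the pan-macrophage genes was 3.66 to 4.62 in DN:WT, 5.59 to 6.17 in DN:HOM, 3.23 to 4.63 in KO:WT and 4.70 to 6.32 in KO:HOM livers. Within the wild-type and heterozygous livers, more pan-macrophage RNA went with more identity RNA, and DN:HET animals 4 and 22 lay at the top of both. Clec4f minus the pan-macrophage mean, a log2 ratio within the liver, was 1.83 to 2.52 in DN:WT, -7.67 to -6.54 in DN:HOM, 1.22 to 2.13 in KO:WT and -2.35 to -0.33 in KO:HOM livers. Vsig4, whose level did not pass the test in KO:HOM, had a ratio of -0.82 to 0.04 in KO:WT and -2.61 to -1.44 in KO:HOM livers, which did not overlap. For Marco the ratio was -4.18 to 1.26 in KO:WT and -4.58 to -2.64 in KO:HOM livers, which overlapped. Those of Id3 and Spic also overlapped between KO:WT and KO:HOM, and that of Id3 between DN:WT and DN:HOM. In the knock-in study that of Spic did not overlap, at -3.44 to -2.94 in DN:WT and -5.74 to -4.51 in DN:HOM livers. Such a ratio shows unequal change of the numerator and the denominator, the latter having risen.

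**Figure D4:**
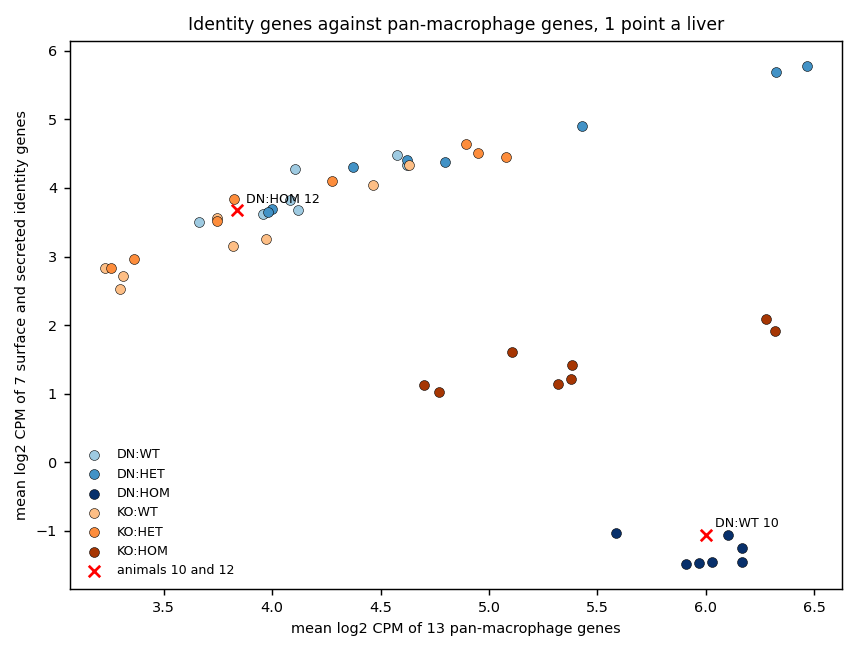
Mean log2 CPM of the 7 surface and secreted identity genes (vertical axis) against that of 13 pan-macrophage genes (horizontal axis), 1 point a liver, coloured by genotype group, with the libraries labelled DN:WT animal 10 and DN:HOM animal 12 as red crosses. Wild-type and heterozygous livers of both studies lie along a single rising band, KO:HOM livers lie below it and DN:HOM livers lowest. In DN:HOM livers the members with fewest reads lie near the floor of the log2 scale.

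The members also varied together among livers that kept them. Over the 31 wild-type and heterozygous livers, with group means removed, the 7 surface and secreted genes had a median Pearson r of 0.744 over 21 pairs, the highest being 0.906 for Timd4 and Cd5l. These livers share a scaling and the macrophage content of each piece of tissue, and the r is a description. Cd163 stood apart, with a median r of 0.118 and no r above 0.261 with any other member. Spic had its highest r, 0.848, with Marco, and Id3 had a median r of 0.272.

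Beyond the list, the genes whose log2 CPM over the 46 livers was most like the mean standardised profile of the 9 members, among 13165 with a mean log2 CPM above 0, were Kcna2 (Pearson r 0.889), Epb41l3 (0.886), Rims3 (0.881), Fcna (0.854), Saraf (0.849), Chp2 (0.833), Cyp2d40 (0.810), Bst2 (0.805), Scd1 (0.800) and Tmem26 (0.798). Kcna2, a voltage-gated potassium channel, had a median of 6.34 CPM in DN:WT, 7.08 in DN:HET and 0.0903 in DN:HOM livers. Its medians were 2.71 CPM in KO:WT, 3.92 in KO:HET and 0.251 in KO:HOM livers, so it was low in both homozygous groups, as Cd5l was. Scd1, the stearoyl-CoA desaturase, is a hepatocyte LXR target, with medians of 42381 CPM in DN:WT and 791 in DN:HOM livers. The likeness is over livers whose groups differ and carries no test.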

How the data were processed

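Stranded mRNA libraries were made from 48 mouse livers. The authors aligned the reads with STAR 2.5.0a to GRCm39 and deposited raw counts per gene in 3 columns, unstranded and for either strand, of which the column for the reverse strand (column 4) was used. Gene symbols, positions and start sites came from GENCODE M39, matched by identifier for 98.8% of genes, and promoter sequence from the GRCm39 genome.

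Counts of 46 livers were fitted in 1 model of 6 group means with edgeR 4.0.16 in R 4.3.3 (filterByExpr, TMM, robust quasi-likelihood F test), with Benjamini-Hochberg adjustment over 15711 genes and a threshold of 0.05. DN:WT animal 10 and DN:HOM animal 12 were left out because the study's source data for an extended data figure are taken to leave them out. CPM were scaled by TMM over all 48 livers, and log2 CPM used a prior count of 2. Depth ran from 5332897 to 16961379 reads. Alternatives were all 48 livers, DESeq2 1.42.0, upper-quartile scaling, library size alone, no low-count filter, unstranded counts, each study on its own and a fit lacking the 2 livers with fewer than 10000000 reads. Leaving out DN:HET animals 4 and 22, or KO:WT animal 32, was added after seeing the data. Python 3.11.15 (pandas 2.3.3, numpy 2.4.6, scipy 1.17.1) made the tables, and figures were drawn with matplotlib 3.10.9. On simulated counts of the DN:HOM comparison (15261 genes), 72% of genes set to a log2 change of 1 were called, as were 89% of those set to 2 and 10 of 15062 left unchanged. For the KO:HOM comparison with no change it called 0 of 15261.

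The members and the gene lists were chosen with earlier results of these data known. Genes named are the 9 members, Nr1h3, genes of the lists, and the 10 genes nearest the members' mean profile. Gm10602, which overlaps Folr2, was added after its values were seen. 1 listed gene is not reported here.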

Additional observations from a re-analysis of the deposited data

Results flagged for a closer look

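Across 72 sets of values, 9 genes in 6 groups and again in DN:WT and DN:HOM without animals 10 and 12, 23 values stood far from the rest of their set, where chance flags about 1 in 20 sets and the sets share livers. Of these values, 11 came from the libraries labelled DN:WT animal 10 and DN:HOM animal 12. DN:WT animal 10 was low for Clec4f (0.202 CPM), Vsig4 (1.72), Cd163 (0.0506) and Folr2 (0.607). DN:HOM animal 12 was high for Clec4f (62.1 CPM), Timd4 (5.10), Marco (1.82), Vsig4 (16.9), Cd5l (65.1), Cd163 (8.88) and Folr2 (8.88).

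Without those libraries, DN:HOM animal 33 was high for Timd4 (0.296 CPM) and Cd5l (0.592) and DN:HOM animal 9 for Cd163 (0.361), all far below any DN:WT liver used and resting on 6, 12 and 8 reads. KO:HOM animal 17, of low depth, was high for Timd4 (1.71) and Cd5l (3.42), and KO:HOM animal 11 for Vsig4 (21.4). KO:WT animal 32 was high for Marco (31.97) and Spic (8.98) together. DN:WT animal 17 was high for Spic (3.07). Id3 was high in KO:WT animal 31 (51.98), KO:HET animal 15 (73.9) and KO:HOM animal 20 (94.5).

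The homozygous effect differed between the knock-in and the knockout for 6 members by the test of the difference, on the log2 scale by -6.56 for Clec4f, -3.94 for Timd4, -4.34 for Marco, -3.49 for Vsig4, -4.41 for Cd163 and -2.39 for Folr2, with DN:HOM lower in each. Model and site cannot be told apart in these differences. Of all genes, 18.2% had a lower effect in the knock-in by the same test. Over all 48 livers, Vsig4 alone of the 6 members still passed it (-2.11, adjusted p = 0.0297).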

How the results depend on the processing

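The 7 members that fell in DN:HOM fell under each of the 8 alternatives run for that comparison, as did Cd5l, Timd4 and Cd163 in KO:HOM under 9. Over all 48 livers the gap between the models was lower for 1 member in place of 6 (all genes in either direction, 1626 of 15621 in place of 5427 of 15711), and KO:HET lay above its midpoint for 0 in place of 2. The DN:HET rise of Marco was called for 0 members in 4 settings: all 48 livers, every gene kept, each study on its own, and without DN:HET animals 4 and 22. Library size alone gave 2 members higher in KO:HOM in place of 1, and moved the median of all genes in DN:HOM by 0.43 on the log2 scale.

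Signs turned for the members and Nr1h3 as follows, where the difference had passed the test for Nr1h3 in DN:HOM. In DN:HOM, Spic was -0.0308 over all 48 livers and -0.0302 with unstranded counts, and Nr1h3 was 0.11 with library size alone. In KO:HOM, Marco was 0.94 without KO:WT animal 32. The gap between the models was 3.52 for Cd5l over all 48 livers. Among the other list genes named, the gap of Gpnmb, which had passed, turned to -1.50 over the same livers. Gaps that had not passed turned there for Lyz2 (-0.46), Itgax (-0.94), Cd68 (-0.33), Ccr2 (-0.30), C1qa (-0.29) and Spi1 (-0.24). Those of Abcg1 (-0.17), Adgre1 (-0.14), Csf1 (-0.0039) and Rbpj (-0.000226), which had not passed, turned as well. In DN:HET, Folr2 was -0.0300 with unstranded counts and Id3 -0.0101 over all 48 livers, and without animals 4 and 22 Clec4f was -0.0105, Timd4 -0.24, Folr2 -0.0537 and Nr1h3 -0.00065. In KO:HET with unstranded counts, Folr2 was 0.26 and Id3 -0.00500. The causes were not tested. No paired analysis was possible because the replicate numbers only name different mice and pair none across genotypes. The paper's reporting summary says that the studies were split into cohorts and pooled. The sample labels do not name the cohort of a mouse, so it was not in the model. In DN:HOM livers Timd4 rests on 10 reads in all and Cd163 on 14, so differences between livers there rest on few reads.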
